A study of Mus musculus with 13 samples.

Results

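Gene expression in whole lower incisors of VDRgem mice was compared with that of control incisors. The samples were chosen by their labelled genotype: 3 libraries labelled VDRgem and 5 labelled control, or 8 of the 13 libraries in the series. All came from males on postnatal day 5, and the series calls its controls wild type. The other 5 libraries, from VDR-null incisors, are not compared here and entered the fit only through the shared spread, gene filter and scaling. VDRgem is a mouse strain whose vitamin D receptor gene (Vdr) carries a change in the hormone-binding pocket, so that the receptor is made but responds to synthetic gemini ligands in place of the natural hormone. That description is general knowledge of the strain and not part of the labels. The change is inherited through the germline, so every tissue of the animal carries it and not dental cells alone. The labels do not name the genetic background, the ligand supply or the animal behind each library, and p-values therefore measure the spread between these libraries.

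The vitamin D receptor is a nuclear receptor that pairs with a retinoid X receptor and, with calcitriol bound, changes transcription of genes for calcium uptake, mineral handling and its own hormone's breakdown. The mouse incisor grows throughout life. Stem cells in the cervical loop at its base feed dividing epithelial and mesenchymal progenitors, which mature towards the tip into enamel-forming ameloblasts and dentin-forming odontoblasts. FGF, Hedgehog, Wnt and BMP signals between epithelium and mesenchyme govern that dividing zone, and a fibrous ligament anchors the root side of the tooth.

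The labelled tissue was checked first. Transcripts of ameloblasts (Amelx, Ambn and Enam) and odontoblasts (Dspp and Dmp1) were present in all 8 libraries. Amelx ran from 5525 to 39380 CPM (the count per 1000000 after TMM scaling), and Dspp from 15900 to 26790 CPM. Total counts were 20405188 to 66058759 per control and 48778971 to 87783466 per VDRgem library. The VDRgem libraries were not alike. Markers of surface epithelium, a tissue next to the tooth, had a mean log2 CPM over 13 keratin genes of 9.47, 7.90 and 4.95 in VDRgem libraries 1, 2 and 3, beside 2.28 to 4.75 in controls. Skeletal muscle markers had means of 3.43, 1.52 and 1.05 over 18 genes, against -0.81 to 1.03. The SD over all tested genes of the difference from the control mean was 0.963, 0.624 and 0.482 on the log2 CPM scale in VDRgem 1, 2 and 3, and 0.338 to 0.436 in single controls. On the first principal component, which held 56.9% of the variance, VDRgem 1 lay at 98.6, VDRgem 2 at 44.8 and VDRgem 3 at 0.81, while controls lay between -44.6 and -9.54.

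**Figure D1:**
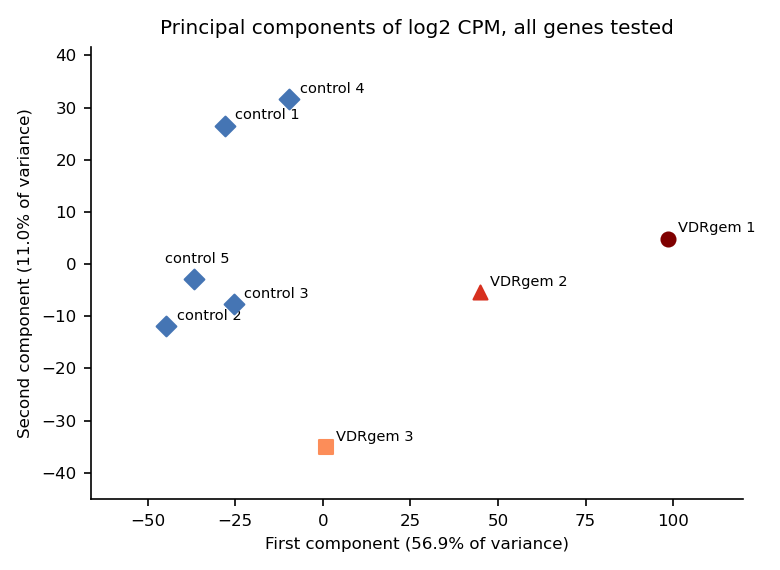
Positions of the 8 libraries on the first and second principal components of log2 CPM over all 17837 genes tested, with the share of variance on each axis. Diamonds are controls and the circle, triangle and square are VDRgem 1, 2 and 3. All 3 VDRgem libraries lie to the right of every control on the first axis, with VDRgem 3 nearest to the controls.

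Of 17837 genes tested, 1537 (8.62%) passed an adjusted p of 0.05 in edgeR's quasi-likelihood test and are referred to as called. Of these, 856 (4.8%) rose and 681 (3.82%) fell in VDRgem. Every VDRgem library lay above every control for 9.01% of all tested genes and below every control for 10.3%. The median log2 fold change was 1.06 among called rises and -0.80 among called falls, and 0.00 over all genes tested. Large changes were mostly rises, with 158 called rises but 19 called falls beyond a log2 fold change of 3.

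Rises and falls were spread differently over the 3 VDRgem libraries. For the called rises, the median difference from the control mean was 1.54, 0.79 and 0.50 (log2 CPM) in VDRgem 1, 2 and 3, and the share of genes above every control was 100%, 98.9% and 70.4%. For the called falls the medians were -0.90, -0.73 and -0.70, and the share below every control was 99.9%, 99.6% and 98.7%. So the rises were graded in the same order as the keratin markers, and the falls were of similar size in all 3. These shares describe genes that were called on the same libraries, so they are no independent test. Leaving out VDRgem 1 reduced the calls from 1537 to 66 (0.364%), all of them among the 1537, with 39 rises and 27 falls. Leaving out VDRgem 2 gave 1032 calls (5.54%; 708 rises, 324 falls), and leaving out VDRgem 3 gave 2021. Leaving out control 1, 2, 3, 4 or 5 gave 816, 822, 1016, 833 or 643 calls. The calls below therefore rest on the 3 VDRgem libraries together, and log2 fold changes without VDRgem 1 are given beside the main groups. Of 157 called genes picked by the naming rule, 30 kept their call without VDRgem 1 and none changed direction.

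**Figure D2:**
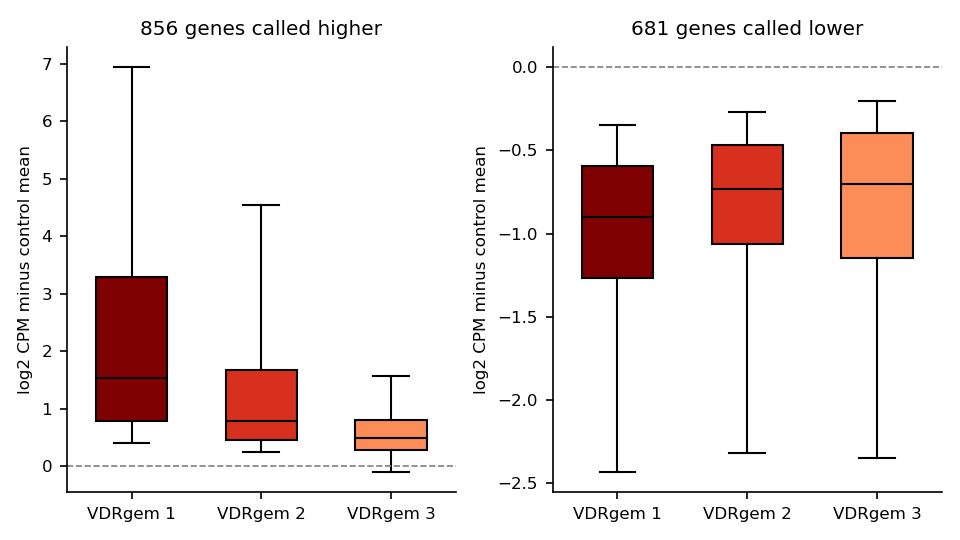
Difference between each VDRgem library and the control mean in log2 CPM, for the 856 genes called higher (left) and the 681 called lower (right). The y axes differ between panels; boxes span the quartiles with the median as a line, and whiskers reach the 5th and 95th percentiles. Rises shrink from VDRgem 1 (median 1.54) to VDRgem 3 (0.50), while the medians of the falls lie between -0.90 and -0.70.

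**Figure D3:**
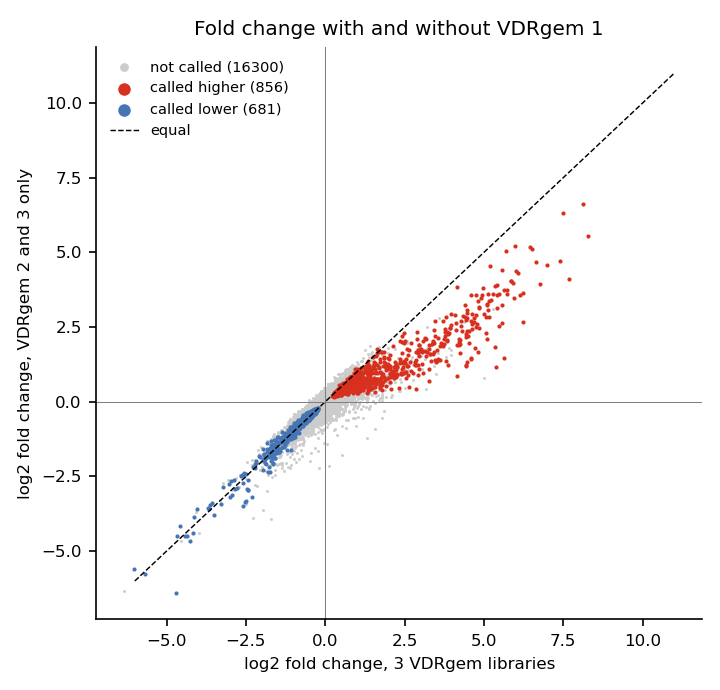
Log2 fold change (VDRgem over control) of each tested gene in the fit with 3 VDRgem libraries (x axis) and in the fit without VDRgem 1 (y axis), coloured by the call in the first fit. Called falls lie along the dashed line of equal values, and most called rises lie under it.

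The level of the mutated gene was measured in each library. Vdr (ENSMUSG00000022479, chr15:97854425-97910630, minus strand, mm10) stood at 107, 205 and 179 CPM in the VDRgem libraries and at 176, 166, 154, 180 and 142 CPM in controls. VDRgem 1 was the lowest of the 8 and VDRgem 2 the highest, so the groups overlapped. The log2 fold change was -0.00 (SE 0.17, edgeR adjusted p = 0.998; two-sided exact permutation p = 0.911, smallest possible 0.0357). Without VDRgem 1 it was 0.22 (adjusted p = 0.469). A level of RNA does not check a receptor that is made but altered.

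Few other genes of the vitamin D system were called. These were 1 of 12 receptor and partner genes, 2 of 9 genes of vitamin D activation and breakdown and 2 of 18 receptor targets. The last 2 lists share Cyp24a1. Among all tested genes 8.62% were called, and lists this small cannot show a share above or below that. Cyp24a1, the enzyme that inactivates calcitriol and a direct receptor target, fell: it held 0.192, 0.154 and 0.110 CPM in VDRgem 1, 2 and 3, and 0.290, 0.426, 0.333, 0.506 and 0.466 CPM in controls 1 to 5. Every VDRgem library was below every control. The log2 fold change was -1.43 (SE 0.39, adjusted p = 0.0364), from 26 counts in all VDRgem libraries and 93 in all controls. The call was lost in each of the 8 fits that left out 1 of these libraries, with a log2 fold change of -1.65 and an adjusted p of 0.117 without VDRgem 1. Pth1r, the parathyroid hormone receptor, rose (log2 fold change 0.52, SE 0.14, adjusted p = 0.0376, every VDRgem library above every control). Hr, a corepressor that binds the receptor, held 179, 96.0 and 68.1 CPM in VDRgem libraries 1, 2 and 3, beside 60.5 to 67.7 CPM in controls, so its rise (log2 fold change 0.84, adjusted p = 0.0301) was graded. Cst6, a cysteine protease inhibitor of surface epithelium, rose by 3.77 on the log2 scale, with VDRgem 3 inside the control range. Keratin markers stood in the same order as Hr and Cst6, and their part in these values was not tested. Without VDRgem 1 the log2 fold changes of Pth1r, Hr and Cst6 were 0.46, 0.35 and 2.32, with adjusted p-values of 0.0936 to 0.217. Over the receptor target list 1 of 18 tested genes rose and 1 fell, with a median log2 fold change of 0.05. Known targets in that list without a call included Calb1 (0.15, adjusted p = 0.845), Trpv6 (-0.27, adjusted p = 0.723), Bglap (-0.02, adjusted p = 0.974; its reads may be shared with near-identical copies) and Cdkn1a (0.05, adjusted p = 0.883).

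In the list for calcium entry, buffering and extrusion, 3 of 18 genes rose and none fell, where 4.8% of all tested genes rose. These were Itpr2, a calcium release channel of the endoplasmic reticulum (log2 fold change 0.59), Stim2, a sensor of calcium stores (0.47), and Slc24a4, the exchanger that maturing ameloblasts use to move calcium into enamel (0.63). The list's mean level was 6.38, 6.17 and 6.17 log2 CPM in VDRgem 1, 2 and 3, above the control range of 5.89 to 6.10. Of the 60 lists examined, 23 lay above every control in all VDRgem libraries and 10 lay below. With VDRgem 1 left out, the 3 genes had log2 fold changes of 0.31, 0.37 and 0.47 and lost their calls (adjusted p of 0.154 to 0.262). With libraries scaled by their totals alone all 3 calls were lost and the list's median turned from 0.16 to -0.02.

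Genes of the dividing cell fell together. The lists for replication origin licensing, replication fork and nucleotide supply, G1 and S phase regulators, mitotic kinases and cyclins, and spindle, kinetochore and cytokinesis held 104 distinct tested genes. Of these, 74 fell, none rose, and 102 had a negative log2 fold change, against 3.82% called lower among all genes. The median log2 fold change was -0.80, beside 0.00 over all genes tested. The number of members below every control was 95 in VDRgem 1, 97 in VDRgem 2 and 99 in VDRgem 3. Of all tested genes, 31.4%, 24.7% and 24.7% lay below every control in VDRgem 1, 2 and 3. Keratin and muscle marker levels are given above, and their part in these falls was not tested. With VDRgem 1 left out, the median was -0.77 and no member kept its call. In whole incisors, fewer dividing cells and less RNA per cell cannot be told apart.

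For promoters of these genes, the letters before the transcription start were read, because cell cycle genes are known to share short promoter elements. The 250 bases upstream of each RefSeq start on GRCm38.p6, the mm10 assembly, were searched on both strands. The element CCAAT, bound by NF-Y, was in 12 of the 13 called mitotic kinase and cyclin genes that had a window (92.3%), and in 39.5% of 12620 tested genes with a window. TTTGAA, the core of the cell cycle homology region bound by MuvB complexes, was in 4 of the 13 (30.8%) and in 8 of 17 called spindle genes (47.1%), against 13.1%. TTCCCGC, an E2F-type element, was in 4 of 13 called replication fork genes (30.8%), against 7.61%, and in none of the called mitotic or spindle genes with a window. Of the called fork genes 38.5% held CCAAT and 7.69% TTTGAA, so neither was above its share of tested genes there. Of 11 called licensing genes with a window, 9 held CCAAT (81.8%), 2 TTTGAA and 2 TTCCCGC (18.2% each). CCAAT was in 12 of the 17 spindle genes (70.6%). Of 3 called G1 and S phase genes with a window, 2 held CCAAT, 2 TTTGAA and 1 TTCCCGC. Among all called falls with a window CCAAT was in 48.2%, and among called rises in 33.1%. The 4 called mitotic genes that hold both CCAAT and TTTGAA are shown first, then Cdc6 as an example with the E2F-type element. In the GENCODE M21 annotation Cdc6 begins at chr11:98907801, so its RefSeq window lies inside the gene as annotated there. Sequences run 5′ to 3′ on the gene's strand and end at the base before the start, with these elements, on either strand, in capitals; CCAAT and its complement ATTGG overlap once in Ube2c.

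Cdc20 (chr4:118437344-118437593, minus strand): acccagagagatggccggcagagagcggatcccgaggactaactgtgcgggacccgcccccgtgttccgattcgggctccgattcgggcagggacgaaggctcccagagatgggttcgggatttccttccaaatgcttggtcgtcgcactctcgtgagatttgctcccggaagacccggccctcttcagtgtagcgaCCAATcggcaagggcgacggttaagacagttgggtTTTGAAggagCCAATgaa
Cdk1 (chr10:69352913-69353162, minus strand): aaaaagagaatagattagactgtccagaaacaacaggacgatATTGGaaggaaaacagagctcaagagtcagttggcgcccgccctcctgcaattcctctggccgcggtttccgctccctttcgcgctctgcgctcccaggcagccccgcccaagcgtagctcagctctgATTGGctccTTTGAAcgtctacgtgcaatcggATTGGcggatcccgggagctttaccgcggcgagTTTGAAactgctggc
Ccnb2 (chr9:70421555-70421804, minus strand): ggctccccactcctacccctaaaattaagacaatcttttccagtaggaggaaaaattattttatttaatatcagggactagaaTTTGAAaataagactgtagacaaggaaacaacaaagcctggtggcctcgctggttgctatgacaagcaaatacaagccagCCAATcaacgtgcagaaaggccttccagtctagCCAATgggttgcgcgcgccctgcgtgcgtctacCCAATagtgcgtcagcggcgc
Ube2c (chr2:164769679-164769928, plus strand): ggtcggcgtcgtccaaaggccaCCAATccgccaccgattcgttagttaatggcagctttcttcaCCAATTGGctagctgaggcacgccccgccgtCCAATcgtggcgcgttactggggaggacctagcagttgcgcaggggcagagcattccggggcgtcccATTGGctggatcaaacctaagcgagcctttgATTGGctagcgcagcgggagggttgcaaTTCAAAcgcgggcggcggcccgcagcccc
Cdc6 (chr11:98907901-98908150, plus strand): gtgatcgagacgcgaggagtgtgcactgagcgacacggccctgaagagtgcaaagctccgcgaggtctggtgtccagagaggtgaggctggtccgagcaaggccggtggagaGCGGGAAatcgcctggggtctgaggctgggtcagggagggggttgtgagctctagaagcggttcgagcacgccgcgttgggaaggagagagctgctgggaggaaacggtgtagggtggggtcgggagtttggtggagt

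A match of letters is a description and not a bound site. Cdc20, the activator of the anaphase-promoting complex, held 16.8, 15.7 and 12.1 CPM in VDRgem 1, 2 and 3, and 34.0, 34.9, 24.9, 35.4 and 34.1 CPM in controls 1 to 5. All 3 VDRgem libraries were below the lowest control, and VDRgem 3 was the lowest (log2 fold change -1.14, SE 0.25, adjusted p = 0.0183). Cdk1, the kinase that starts mitosis, held 21.96, 26.32 and 20.46 CPM, against 38.88 to 49.95 CPM in controls. Without VDRgem 1, Cdc20 had a log2 fold change of -1.25 (adjusted p = 0.0749). The cyclin Ccnb2, a partner of Cdk1, had a log2 fold change of -0.94, and Ube2c, the ubiquitin enzyme of the same complex as Cdc20, one of -1.15. Of the 19 mitotic kinase and cyclin genes 16 fell, among them Aurka (-1.26, adjusted p = 0.0118) and Aurkb (-1.10, adjusted p = 0.0184), the Aurora kinases of spindle and centromere. Of 26 spindle genes 22 fell, including the microtubule depolymerase Kif2c (-1.28), the kinetochore subunit Spc24 (-0.88) and the chromosomal passenger subunit Incenp (-0.78).

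Upstream of mitosis, 15 of 19 licensing genes and 15 of 22 fork and nucleotide genes fell. Cdc6, which loads the replicative helicase, held 2.82, 3.04 and 3.61 CPM in VDRgem libraries 1, 2 and 3, beside 6.31 to 8.33 CPM in controls. Mcm5, a helicase subunit, held 27.9, 30.1 and 25.4 CPM against 50.6 to 63.6 CPM (log2 fold change -1.06, SE 0.23, adjusted p = 0.0181). Neither gene overlapped between the groups. Mcm10 (-1.40), the methylation maintenance factor Uhrf1 (-1.22) and the ribonucleotide reductase subunit Rrm2 (-0.98) fell as well. Among G1 and S phase regulators 6 of 18 fell. The deepest was Mycn, a transcription factor of progenitor cells: 2.51, 3.06 and 3.31 CPM in VDRgem 1, 2 and 3, and 16.9, 13.4, 12.4, 16.7 and 12.2 CPM in controls 1 to 5. The 3 VDRgem values were close together and all under the lowest control (log2 fold change -2.27, SE 0.41, adjusted p = 0.00986; -2.18 and 0.0689 without VDRgem 1). Cyclin D1 (Ccnd1, -0.96) and E2f2 (-0.75) fell too. Of 22 cell cycle inhibitors and p53 targets none was called; the smallest p belonged to Cdkn2c, with a log2 fold change of -0.33 (adjusted p = 0.0502).

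**Figure D4:**
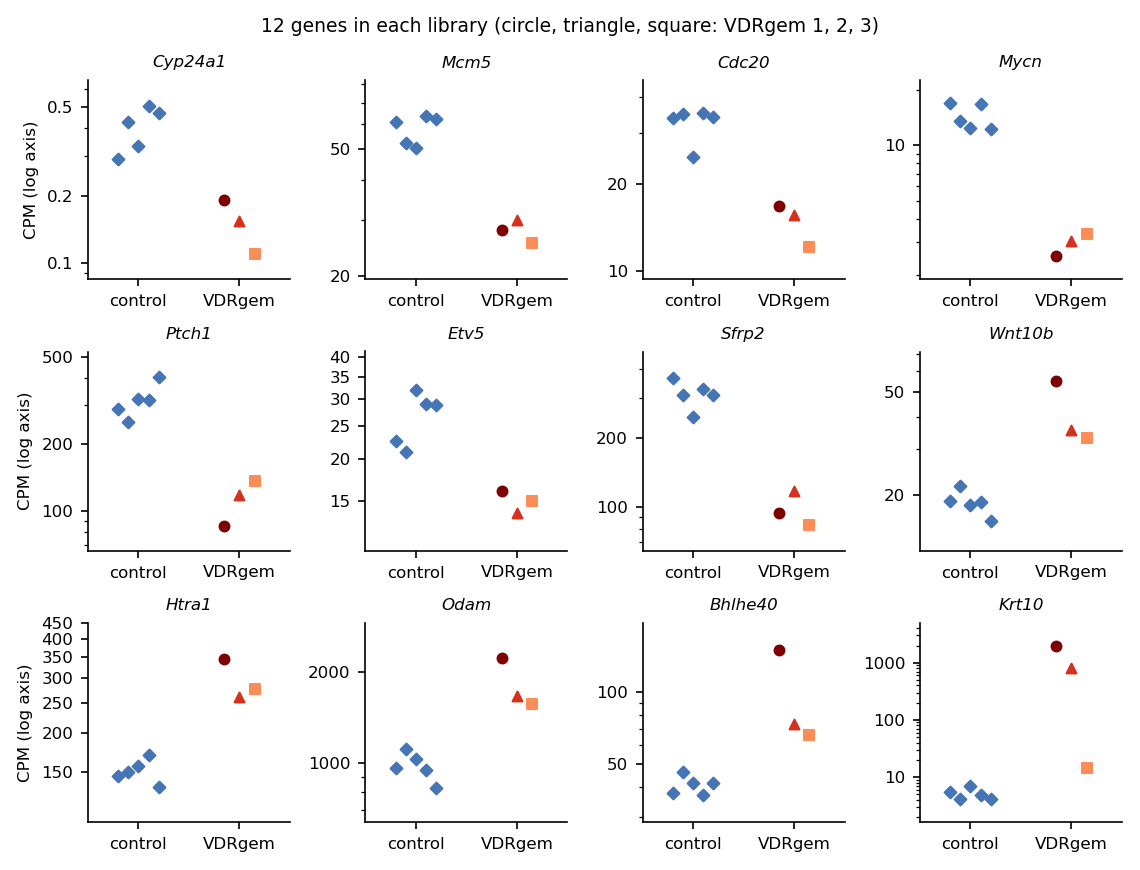
Level of 12 genes in each library, in CPM on log axes whose ranges differ between panels. Diamonds are the 5 controls, and the circle, triangle and square are VDRgem 1, 2 and 3. Falls such as Mycn (2.51 to 3.31 CPM against 12.2 to 16.9) are alike in the 3 VDRgem libraries, while Krt10 ranges from 14.1 to 1963 CPM.

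Signals of the incisor's growth zone also moved. FGF signals from the mesenchyme are known to keep the cervical loop dividing, and 4 of 21 genes in that list fell while 1 rose. Over all tested genes 3.82% fell and 4.8% rose. Fgf3, a ligand of the dental papilla, held 0.192, 0.462 and 0.403 CPM in VDRgem 1, 2 and 3, and 3.36, 3.03, 2.12, 3.50 and 2.48 CPM in controls 1 to 5. All 3 VDRgem libraries were below every control (log2 fold change -3.02, SE 0.54, adjusted p = 0.00982; -2.75 and 0.0685 without VDRgem 1). Fgf10, the other papilla ligand, fell by 1.88 on the log2 scale. Etv4 and Etv5, transcription factors that report FGF signalling, fell as well: Etv5 held 15.98, 13.80 and 14.99 CPM in VDRgem libraries 1, 2 and 3, beside 21.0 to 32.1 CPM in controls, and its call was kept in every fit that left out 1 library (log2 fold change -0.84; -0.91 and adjusted p = 0.0489 without VDRgem 1). Etv4 had a log2 fold change of -1.74. The member that rose was Fgf7 (1.22), a ligand that acts on epithelium.

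In the Hedgehog list 5 of 13 genes fell and 1 rose, beside 3.82% and 4.8% of all tested genes. Shh, the ligand made by the enamel epithelium, held 13, 5.06 and 7.30 CPM in VDRgem 1, 2 and 3, and 29.9, 48.3, 64.1, 35.2 and 55.4 CPM in controls 1 to 5 (log2 fold change -2.46, SE 0.58, adjusted p = 0.023). The groups did not overlap. Other falls were in genes known to report the signal: the receptor Ptch1 (-1.49), the transcription factor Gli1 (-1.39) and the ligand-binding Hhip (-1.59). Ptch1 held 85.5, 118 and 136 CPM against 253 to 405 CPM in controls, and without VDRgem 1 its log2 fold change was -1.33 (adjusted p = 0.0714). Boc, a Hedgehog co-receptor, rose (0.65). The signal transducer Smo did not pass, with a log2 fold change of -0.01 (adjusted p = 0.954).

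Wnt genes moved in both directions. Of 14 ligands 5 rose and none fell, with a median log2 fold change of 0.49. Among all tested genes 4.8% rose and 3.82% fell. Wnt10b, a ligand of dental epithelium and odontoblasts, held 55.05, 35.79 and 33.13 CPM in VDRgem 1, 2 and 3, and 19.01, 21.68, 18.37, 18.84 and 15.83 CPM in controls 1 to 5. It was above every control in each VDRgem library and kept its call without each of the 8 libraries (log2 fold change 1.14, SE 0.18, adjusted p = 0.0076). Wnt7b (1.76) held 88.2, 34.5 and 20.8 CPM in VDRgem 1, 2 and 3, the order of the keratin markers, whose part was not tested. Wnt2 rose to 5.31 CPM in VDRgem 1 but held 0.220 and 0.207 CPM in the other two, inside the control range. The median over the ligands for VDRgem 3 alone was 0.37. Among 28 antagonists and response genes 3 rose and 5 fell. Sfrp5, a secreted Wnt antagonist, held 0.767, 1.21 and 1.29 CPM, against 9.26 to 15.4 CPM in controls (log2 fold change -3.63, SE 0.58, adjusted p = 0.0082). Sfrp2, of the same family, held 94.4, 117 and 83.5 CPM, against 248 to 367 CPM (-1.66). Axin2 (-0.60), a direct Wnt target, and the Wnt transcription factors Tcf7 (-1.03) and Lef1 (-0.72) also fell. Dkk2 (0.57), Dkk3 (0.54) and Sfrp4 (0.49) rose. Without VDRgem 1 the log2 fold changes of Sfrp5, Sfrp2 and Axin2 were -3.45, -1.65 and -0.65, with adjusted p-values of 0.0507 to 0.0685.

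Retinoic acid, which patterns the jaw, is cleared by Cyp26 enzymes, and these split. Cyp26c1 fell from 12.9 ± 2.08 CPM in controls (SD, n = 5) to 1.55, 1.01 and 0.867 CPM in VDRgem 1, 2 and 3 (log2 fold change -3.50, SE 0.69, adjusted p = 0.013). Cyp26b1 rose from 42.7 ± 4.55 CPM to 95.3, 76.7 and 72.7 CPM (0.93, SE 0.15, adjusted p = 0.00906). Neither overlapped between the groups, and in that list of 16 genes the retinoid-binding Crabp1 fell too (-0.91). Leaving out VDRgem 1 gave -3.79 and 0.80 (adjusted p = 0.0689 and 0.0608). In the BMP list of 22 genes 2 fell, among them the BMP pseudoreceptor Bambi (-0.58). The 3 rises were Bmp6 (0.62), the antagonist Chrdl1 (0.91) and the receptor Bmpr1b (3.40). The list's mean level was 5.535, 5.436 and 5.2 log2 CPM in VDRgem 1, 2 and 3, and 5.135 to 5.338 in controls, so VDRgem 3 lay inside the control range. Of 19 TGF-beta and activin genes 3 rose, among them Inhbb, an activin subunit (0.79), and Ltbp4, which stores latent TGF-beta in matrix (0.74). Inhbb held 36.3, 35.0 and 38.5 CPM in VDRgem 1, 2 and 3 and 18.9 to 22.8 CPM in controls, with no order by library. Without VDRgem 1, Bambi, Bmp6 and Inhbb had log2 fold changes of -0.49, 0.47 and 0.78 (adjusted p of 0.0837 to 0.11). The insulin-like growth factor list had 4 rises of 19 (Igfbp7, Igf2r and Igfbp2 among them), while Notch3 (0.49, 1 of 16 Notch genes) and the ectodysplasin ligand Eda (0.45, 1 of 8) were single calls. The shares over all tested genes were 4.8% for rises and 3.82% for falls. The calls of Notch3, Eda and Igf2r were lost when libraries were scaled by totals alone.

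Transcription factors that place and pattern the tooth moved in both directions. Of 25 homeobox genes of tooth and jaw mesenchyme 3 fell and 1 rose, beside 3.82% and 4.8% of all tested genes. The median log2 fold change was -0.03 in that list and 0.08 in the list of dental epithelial regulators below. Dlx1 held 32.4, 32.9 and 33.2 CPM in VDRgem libraries 1, 2 and 3, beside 44.3 to 50.8 CPM in controls (log2 fold change -0.54, SE 0.11, adjusted p = 0.0144). Lhx6, which works downstream of FGF signals in jaw mesenchyme, fell by 0.75 and Dlx5 by 0.57 on the log2 scale. Pax3, a neural crest and muscle progenitor factor, rose from 1.36 ± 0.293 CPM to 6.46, 3.98 and 2.99 CPM (1.71). Sox9, a factor of cartilage and epithelial progenitors, held 24.9, 42.7 and 48.7 CPM, against 60.7 to 88.6 CPM in controls (-0.96), with the lowest value in VDRgem 1. Of 20 regulators of dental epithelial stem cells and lineages 3 fell and 2 rose. Sp6 (epiprofin), needed for ameloblast formation, held 420, 460 and 415 CPM against 593 to 670 CPM (-0.53), Foxi3 had a log2 fold change of -2.89, and Gli1 is given above. The rises, Krt14 and Sox2, were highest in VDRgem 1 and inside the control range in VDRgem 3. In VDRgem 2 and 3 alone, the log2 fold changes of Dlx1, Lhx6 and Sp6 were -0.54, -0.71 and -0.52 (adjusted p = 0.0841, 0.0539 and 0.0986).

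Enamel matrix genes did not pass the test, and late enamel genes partly rose. None of 8 secretory enamel matrix genes was called. Ambn, the ameloblastin gene, held 16400, 18670 and 10290 CPM in VDRgem libraries 1, 2 and 3, and 5822 to 23660 CPM in controls, so controls alone spanned the VDRgem values. Enamelysin (Mmp20) had a log2 fold change of 0.02 (adjusted p = 0.954). Of 12 maturation-stage genes 3 rose, where 4.8% of all tested genes did, and all 12 had a positive log2 fold change. Odam, a protein of the ameloblast basal lamina, held 2224, 1655 and 1565 CPM in VDRgem 1, 2 and 3, and 960, 1108, 1025, 945 and 826 CPM in controls 1 to 5. All VDRgem libraries were above the highest control (log2 fold change 0.90, SE 0.20, adjusted p = 0.0178; 0.71 and 0.115 without VDRgem 1). Klk4, the protease that clears enamel matrix, rose (0.81, adjusted p = 0.0494), though not with libraries scaled by totals alone. Gm17660 rose by 1.57, with 27.54, 15.27 and 10.55 CPM in VDRgem 1, 2 and 3. Without VDRgem 1 the log2 fold changes of Klk4 and Gm17660 were 0.48 and 1.10 (edgeR adjusted p = 0.327 and 0.0936). Of 16 ion and acid-base transport genes 2 rose, beside the same 4.8% of all tested genes, among them Slc24a4, given above. In dentin, 1 of 18 genes was called: Sema3a, a guidance molecule, fell (-0.84). Dspp held 20480, 17690 and 26790 CPM against 15900 to 21300 CPM in controls (log2 fold change 0.23, adjusted p = 0.617). None of 12 phosphate and mineral nucleation genes was called, although the list's mean log2 CPM of 6.67 to 6.85 lay above the controls' 6.29 to 6.52. Such a separation was seen in 23 of the 60 lists. The smallest p there was that of the mineral inhibitor Mgp (0.66, adjusted p = 0.0546).

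In the lists of fibrous matrix genes part of the members rose and none fell, where 4.8% of all tested genes rose. Of 11 fibrillar collagen genes 3 rose and all 11 had a positive log2 fold change, with a median of 0.45. Col3a1, the collagen of extensible connective tissue, held 22440, 17140 and 20170 CPM in VDRgem 1, 2 and 3, and 10180, 10710, 13180, 10380 and 10620 CPM in controls 1 to 5. The lowest VDRgem library was above the highest control (log2 fold change 0.85, SE 0.17, adjusted p = 0.0138; 0.75 and 0.086 without VDRgem 1). Col5a1 (0.66) and Col5a3 (1.06), which start fibril formation, also rose, as did 6 of 16 fibril-associated and beaded collagen genes such as Col12a1 (0.53), Col16a1 (0.85) and Col6a1 (0.47). The median over those 16 was 0.10, and their mean level in VDRgem 3 (6.14 log2 CPM) lay inside the control range. Col12a1 held 3089, 3275 and 3939 CPM, highest in VDRgem 3, against 2221 to 2592 CPM in controls, and it lost its call under scaling by totals. In the ligament list 6 of 21 genes rose and 20 had a positive log2 fold change, with a median of 0.49. Postn (periostin), a protein of ligament matrix, held 4946, 3526 and 4445 CPM in VDRgem libraries 1, 2 and 3, and 1998 to 2725 CPM in controls (0.95, SE 0.20, adjusted p = 0.0151). The tendon transcription factor Scx (1.38), thrombospondin Thbs4 (1.34), Aspn (1.85), a small proteoglycan that binds collagen, Tnmd (0.69) and Podn (1.75) rose too. Aspn held 159, 102 and 133 CPM against 26.1 to 47.1 CPM. For VDRgem 3 alone the medians were 0.49 for fibrillar collagens and 0.53 for the ligament list, close to the values over all 3 libraries. The part of the keratin and muscle markers in these values was not tested. Without VDRgem 1, Postn and Thbs4 had log2 fold changes of 0.83 and 1.17 (adjusted p = 0.0927 and 0.0561).

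Among matrix-remodelling genes, 9 of 22 metalloproteinases and inhibitors rose and none fell, with a median of 0.41 and of 0.48 in VDRgem 3 alone. Htra1, a secreted serine protease that cleaves proteoglycans, held 346, 260 and 277 CPM in VDRgem 1, 2 and 3, and 146, 150, 157, 170 and 135 CPM in controls 1 to 5 (log2 fold change 0.96, SE 0.15, adjusted p = 0.0076). Its call was kept without any 1 library. Mmp2, a gelatinase, held 1733, 1453 and 1594 CPM against 1010 to 1168 CPM (0.54), and Mmp11 held 53.02, 51.13 and 51.66 CPM against 37.8 to 41.1 CPM (0.41). Their values were even over the VDRgem libraries. Of 23 elastic fibre and crosslinking genes 4 rose, with the collagen hydroxylase P4ha3 (0.65) even over libraries and the microfibril gene Mfap5 (2.68) at 34.7, 7.97 and 4.61 CPM in VDRgem 1, 2 and 3. Of 23 basement membrane genes Col15a1 (0.80) and Col13a1 (1.34) rose; 4.8% of all tested genes did. In the hyaluronan and large proteoglycan list of 19 the synthase Has2 (0.94), aggrecan (Acan, 0.93) and Gpc1 (0.52) rose. Without VDRgem 1 the log2 fold changes of Mmp2, Mmp11, P4ha3 and Col15a1 were 0.46, 0.39, 0.59 and 0.72 (adjusted p of 0.0561 to 0.0871).

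**Figure D5:**
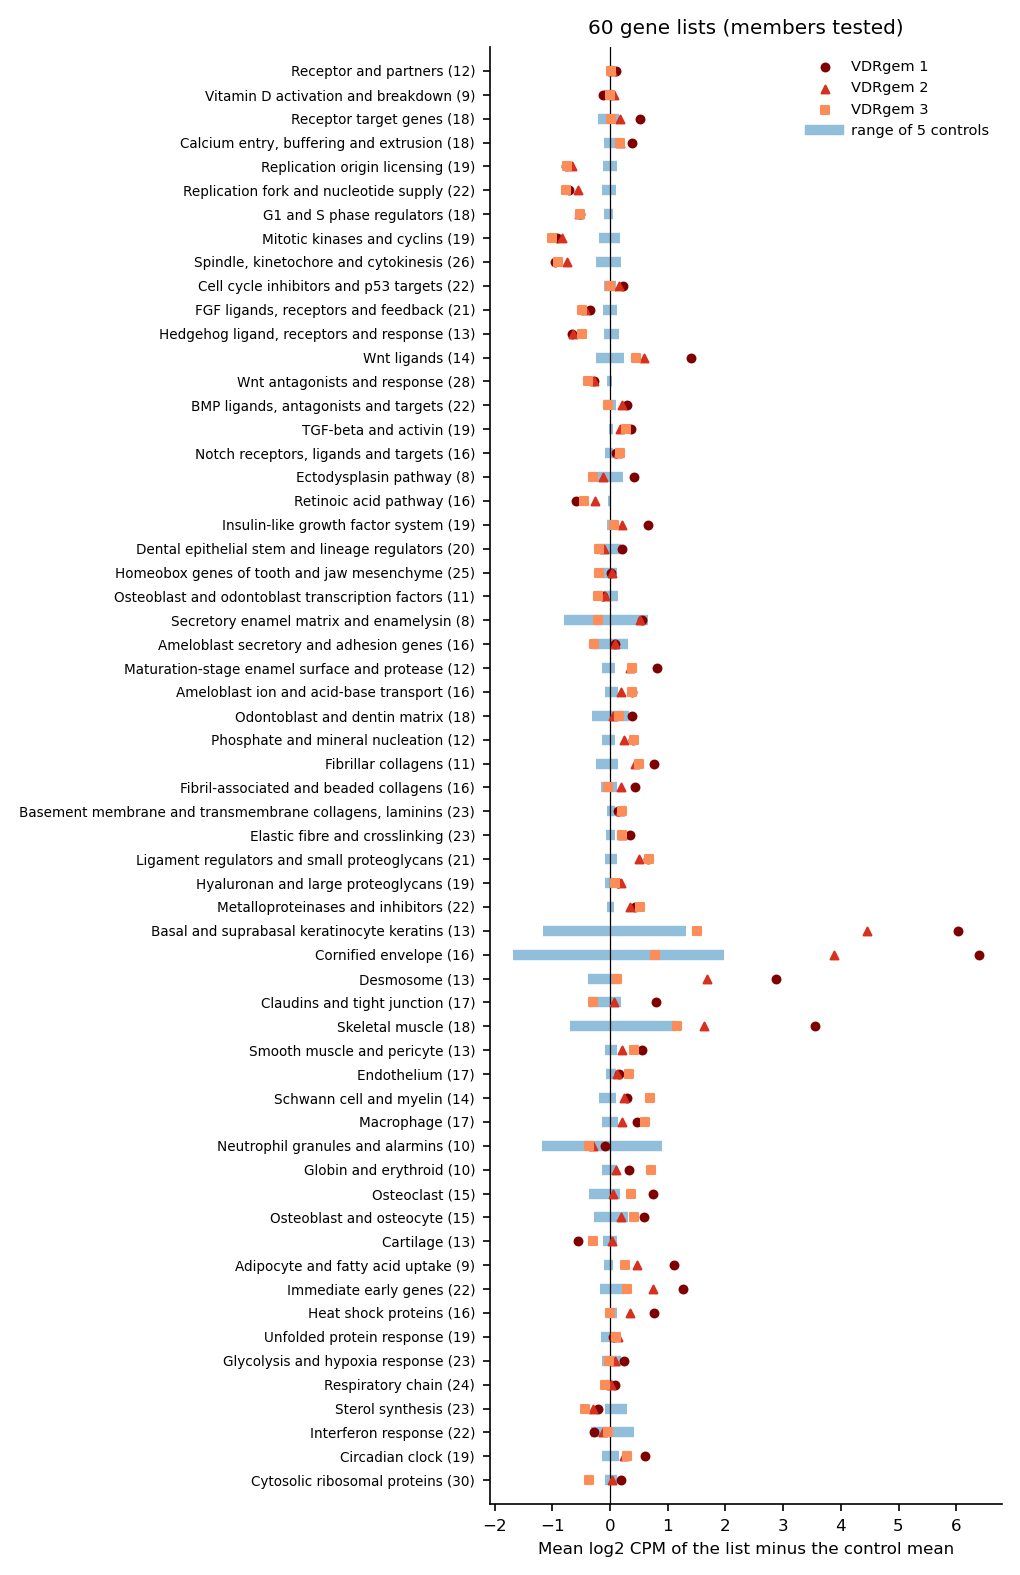
Mean log2 CPM of each of 60 gene lists minus the control mean, with the number of tested members in parentheses. Bars span the 5 controls, and the circle, triangle and square are VDRgem 1, 2 and 3. The 5 cell cycle lists lie to the left of the controls with the 3 VDRgem libraries together, and the keratin, cornified envelope, desmosome and skeletal muscle lists are spread out with VDRgem 1 farthest right.

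Markers of surface epithelium carried the largest rises. Of 13 keratin genes 11 rose, of 16 cornified envelope genes 13, and of 13 desmosome genes 10, beside 4.8% of all tested genes. Krt10, a keratin of differentiating epidermis and oral epithelium, held 1963, 812 and 14.1 CPM in VDRgem libraries 1, 2 and 3, and 4.05 to 6.96 CPM in controls (log2 fold change 7.50, SE 0.92, adjusted p = 0.0041; 6.32 and 0.00526 without VDRgem 1). Krt1, its partner, held 2252, 681 and 5.98 CPM against 0.7102 to 7.68 CPM, so VDRgem 3 lay inside the control range. Flg, which encodes filaggrin of the cornified layer, had 2619, 299 and 3 counts in VDRgem 1, 2 and 3 and none in any control. The keratin and cornified lists had mean levels of 4.95 and 1.44 log2 CPM in VDRgem 3, against 2.28 to 4.75 and -1.02 to 2.64 in controls. Without VDRgem 1 and 2 together, 5 genes (0.0262%) were called in the whole comparison.

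Markers of other tissues had fewer calls. Of 18 skeletal muscle genes 17 had a positive log2 fold change, with a median of 2.17. The muscle list's mean level was above every control in all 3 VDRgem libraries, as in 23 of the 60 lists. Controls were also far apart (-0.81 to 1.03 log2 CPM), and 1 gene rose, Myh3, the embryonic myosin (log2 fold change 5.63, adjusted p = 0.0485), which held 37.6 CPM in VDRgem 1 and 0.476 CPM, inside the control range, in VDRgem 3. All 17 endothelial genes had a positive log2 fold change, with a median of 0.19, and 2 rose, against 4.8% of all tested genes: Pecam1 (0.39) and Eng (0.31), whose calls were lost under scaling by totals. Of 13 smooth muscle and pericyte genes 2 rose, among them the contractile myosin Myh11 (0.87). Of 13 tested cartilage genes 2 rose and 2 fell, with a median of -0.19, where 3.82% of all tested genes fell. In the macrophage list 2 of 17 genes rose, the scavenger receptor Cd163 (1.49) and Lyve1 (2.54). Cd163 was highest in VDRgem 3 (5.55 CPM) and Lyve1 in VDRgem 1 (12.97 CPM). Among 14 Schwann cell genes Gfra3 rose (0.70) and Ngfr, the low-affinity neurotrophin receptor, fell (-0.77). The list's mean was 4.77 log2 CPM in VDRgem 3, above VDRgem 1 and 2 (4.37 and 4.31) and the controls (3.89 to 4.18). Of 15 osteoclast genes the integrin Itgb3 rose (0.74), and of 15 osteoblast genes Pth1r. Of 9 tested adipocyte and fatty acid genes 5 rose and the lipase Lipe fell (-0.43). The largest rises were those of Dgat2, a triglyceride synthesis enzyme (1.98), and the fatty acid carrier Fabp5 (1.71), both graded, with VDRgem 3 inside the control range. Lpl, the lipase of vessel walls (0.91), held 62.7, 42.2 and 54.2 CPM against 25.0 to 31.0 CPM, while the fat cell markers Adipoq and Plin1 were under the count filter. Without VDRgem 1 the log2 fold changes of Cd163, Lpl and Myh3 were 1.49, 0.76 and 1.46 (adjusted p = 0.0689, 0.086 and 0.698). Neutrophil and erythroid lists (10 tested genes each) had no call.

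Genes of stress responses and timing were examined next. Of 22 immediate early genes, which respond quickly to stimulation, 8 rose, beside 4.8% of all tested genes. Fos held 41.7, 29.1 and 10.8 CPM in VDRgem libraries 1, 2 and 3, beside 5.04 to 9.74 CPM in controls (log2 fold change 2.03, SE 0.36, adjusted p = 0.00982), and Egr1 held 182, 218 and 39.9 CPM against 21.0 to 36.3 CPM (2.48). Fosl2 (0.66) held 311, 215 and 251 CPM against 152 to 172 CPM. VDRgem 3 alone had a list median of 0.21, against 0.75 over all 3. Heat shock genes had 4 rises of 16, with the list's median at 0.07. The chaperone pair Hspa1a (1.74) and Hspb1 (1.78) were highest in VDRgem 1, and reads of Hspa1a may be shared with its near-identical copy Hspa1b. The heat shock element GAANNTTC was in 3 of the 4 promoters (75%), against 6.16% of tested genes. Of 19 clock genes 7 rose and none fell, beside 4.8% and 3.82% of all tested genes. Bhlhe40, a clock repressor, held 150, 73.9 and 66.2 CPM in VDRgem libraries 1, 2 and 3, beside 37.0 to 46.5 CPM in controls, and kept its call without any 1 library (1.24, SE 0.21, adjusted p = 0.00982). Nr1d1, a repressor of the daytime loop (1.10), and Arntl, which Nr1d1 represses (0.48), rose together. Without VDRgem 1, Fos, Egr1 and Nr1d1 had log2 fold changes of 1.57, 2.28 and 0.86 (adjusted p = 0.0689, 0.0598 and 0.149). Keratin markers moved in the same library order as Fos, Hspb1 and Bhlhe40, and their part was not tested.

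Metabolic lists differed in their calls, where 3.82% of all tested genes fell and 4.8% rose. Of 23 sterol synthesis genes 3 fell and 21 had a negative log2 fold change. That list's mean level was 4.10 to 4.34 log2 CPM in the VDRgem libraries, below the controls' 4.45 to 4.83. Insig1, a sterol sensor, was among the falls, with a log2 fold change of -0.83 (adjusted p = 0.024) and one of -0.75 without VDRgem 1 (adjusted p = 0.128). In the glycolysis and hypoxia list of 23 the phosphofructokinase Pfkp rose and kept its call without any 1 library (1.08; 0.57 and adjusted p = 0.0358 without VDRgem 1), Egln3 and Slc2a1 rose and Hk2 fell. None of 24 respiratory chain genes, 19 unfolded protein response genes, 22 interferon response genes or 30 cytosolic ribosomal protein genes was called. The smallest p-values in those lists belonged to Sdhc (-0.12, adjusted p = 0.262), Herpud1 (0.42, adjusted p = 0.0827), Ifit2 (-0.46, adjusted p = 0.0611) and Rpl3 (-0.25, adjusted p = 0.0994). Ribosomal protein genes had a lower mean level in VDRgem 3 (5.38 log2 CPM) than in VDRgem 1 and 2 (5.94 and 5.77) or controls (5.65 to 5.86).

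The calls that did not depend on any single library were few. A total of 65 genes (0.364% of those tested) were called in the fit and in each of the 8 fits that left out 1 VDRgem or control library, of which 39 rose and 26 fell. Among the rises, Itm2a, a membrane protein of mesenchymal progenitors, held 204, 167 and 175 CPM in VDRgem 1, 2 and 3, and 106, 123, 119, 107 and 113 CPM in controls 1 to 5 (log2 fold change 0.68, SE 0.09, adjusted p = 0.00501). Sema3c, a guidance ligand, held 37.5, 22.1 and 25.0 CPM against 11.5 to 14.6 CPM (1.12), and Ttll7, a tubulin-modifying enzyme, 15.6, 11.8 and 11.6 CPM against 5.94 to 7.67 CPM (0.96). Ahnak2 (1.98), the serotonin transporter Slc6a4 (3.14) and the lectin Chodl (2.90) were graded from VDRgem 1 to 3. So were Krt10, given above, which had the smallest p of the 39 rises, Il1f9 (6.52), Gast (3.79) and Krt76 (2.69). Krt1, also among the 39, lay inside the control range in VDRgem 3. Keeping every such call thus did not mean even values over the VDRgem libraries. The part of the keratin markers in these rises was not tested. Of the 26 falls, 12 are annotated as processed pseudogenes and 3 as transcribed processed pseudogenes. In the fit as a whole, 6 rises and 19 falls were called among 467 tested processed pseudogenes. Over all tested genes 4.8% rose and 3.82% fell, so falls were about as common in these pseudogenes as in genes at large. Gm15501 held 3.76, 1.80 and 3.42 CPM against 7.62 to 10.9 CPM in controls (-1.65), and Rpl10-ps3, annotated as coding but named as a ribosomal protein copy, 1.28, 0.792 and 1.14 CPM against 2.80 to 3.89 CPM (-1.71, SE 0.19, adjusted p = 0.0039). VDRgem 2 was the lowest library for both. Such copies can share reads with their parent genes, so their counts are uncertain. Wdr89 (-1.17) held 2.99, 2.95 and 3.39 CPM against 6.67 to 7.52 CPM.

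By size, the deepest falls were in genes with low levels. Atp6v1b1, a proton pump subunit, had 3, 0 and 13 counts in VDRgem 1, 2 and 3, and 43, 52, 117, 117 and 169 counts in controls 1 to 5 (log2 fold change -4.67, adjusted p = 0.0239). Cldn6, a tight junction protein of embryonic epithelia, had 5, 0 and 11 counts against 32 to 168 (-4.41), and Fcrl6 had 1, 10 and 5 counts against 30 to 175 (-4.58). Pcp4, a calmodulin-binding peptide, held 0.364, 0.396 and 0.195 CPM against 4.78 to 7.42 CPM (-4.35, adjusted p = 0.0114). Lypd1 (-3.27), a modulator of nicotinic receptors, and the channel Trpm1 (-3.69) fell in all 3 libraries alike. Without VDRgem 1 these log2 fold changes lay between -4.50 and -3.42, with adjusted p-values of 0.0689 to 0.137. Apart from keratins, the largest rises were Fmo9 (67.4, 7.35 and 0.391 CPM in VDRgem 1, 2 and 3; 8.26), Cyp2t4 (7.68) and Idi2 (572, 59.0 and 5.21 CPM; 7.4), and each was highest in VDRgem 1 and lowest in VDRgem 3, the order of the keratin and muscle markers, whose part was not tested.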

How the data were processed

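Each poly-A library (stranded kit) started from 300 ng of RNA, per the labels' protocols. The authors deposited whole-number counts per Ensembl gene for 34709 genes, and the submitters' processing notes list HTSeq 0.6.1p1, STAR 2.5.3a, bcl2fastq 2.20.0.422 and the mm10 build. Counting mode, strand setting and annotation release: not given in the sources used here. A symbol from GENCODE M21 was found for 34618 genes. Within the VDRgem and the control group, no library was a copy of another (smallest chi-square per degree of freedom between replicates 15.2). Pairs across groups and the VDR-null libraries were not checked in this way.

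Counts were fitted with edgeR 4.0.16 in R 4.3.3: TMM scaling, filterByExpr with a minimum count of 10, 1 mean per group over all 13 libraries and quasi-likelihood tests, adjusted by Benjamini-Hochberg over 17837 genes. Levels are CPM after TMM scaling. The level of a list is the average of its members' log2 CPM (prior count 2). The script was tested on simulated data. The 60 lists (1019 distinct genes, of which 965 were tested, 42 missed the filter and 12 had no row) and the rules were chosen with earlier results of these data known, so lists have counts and medians but no test. Named were Vdr, up to 8 calls each way by difference of mean CPM, up to 10 each way called in every leave-one-out fit, up to 10 each way by fold with a mean of at least 1 CPM (no overlap between groups), and up to 3 called members per list. Further genes come from short counts within lists. Promoters are RefSeq windows on GRCm38.p6, matched by symbol for 12620 of the tested genes. Alternatives were DESeq2 1.42.0, limma-voom (limma 3.58.1), other scaling, filters and thresholds, fewer groups, and leaving out libraries. Some members counted within the lists are not reported here by name.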

Additional observations from a re-analysis of the deposited data

Results flagged for a closer look

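Among the controls, 1 library stood apart from the other 4 in 11 of 227 sets of values examined (60 list levels and 167 single genes, by Dixon's criterion for 5 samples), and chance alone flags about 1 in 20. These are values in log2 CPM, and no explanation was tested. Among lists, the lowest control was at 4.99 for G1 and S phase regulators, and the highest at 6.24 for TGF-beta and activin genes and at 4.83 for sterol synthesis genes. Among single genes the highest control was at 13.69 for Col3a1, 1.98 for Gm10288, 8.38 for Gpc1, 0.64 for Lyve1 and 5.66 for Insig1. The lowest control was at 3.22 for Sfrp5, 4.64 for Cdc20 and -0.19 for Pax3. The flagged control stood on the side nearer to VDRgem for Col3a1, Gpc1, Lyve1, Sfrp5, Cdc20 and the G1 and S phase and TGF-beta lists, and on the far side for Gm10288, Insig1, Pax3 and the sterol list.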

How the results depend on the processing

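No paired analysis was possible because the labels carry no replicate numbers shared between the groups. The number of calls (1537; 856 rises, 681 falls) was 2307 with DESeq2 (1079 falls), 981 with limma-voom (453 rises), 1576 falls with libraries scaled by totals alone, 138 at an adjusted p of 0.01 (91 and 47), 2479 at 0.1 (1327 and 1152), and 3385 by the selection the series states, an unadjusted p under 0.05 with a log2 fold change beyond 0.3 either way (1808 and 1577). Leaving out 1 library at a time gave 66 to 2021 calls, 39 to 1250 rises and 27 to 799 falls. With neither VDRgem 1 nor 2 there were 5 calls (1 rise, 4 falls); the lone VDRgem library is then assumed to vary like the other groups. In that fit 4 named rises turned negative: Cldn23 (-0.41), Tjp3 (-0.092), Fabp5 (-0.0804) and Hspb1 (-0.36). Scaling by totals moved the median of all genes by -0.169 and the share of rises among calls from 55.7% to 27.2%, ended 16 of 157 named calls and turned the sign of 14 of 60 list medians, none of them the 5 lists of replication and division genes, the ligament list or the metalloproteinase list. DESeq2 kept all 154 named calls to which it gave a value, and limma-voom ended 42 of 157. The Vdr result kept its side of the threshold under every alternative run. Named calls were lost on leaving out any 1 VDRgem or control library, from 18 of 157 without VDRgem 3 to 127 without VDRgem 1. The cause was not tested. Genes named because they kept every such call could not be among those lost. Low counts limit genes such as Cyp24a1, which had 26 counts over the VDRgem libraries.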

Other observations

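Several genes outside the lists belong to the 65 that kept their call in every fit that left out 1 library; they were chosen after their values were seen. Among rises, Slit2, a guidance ligand of mesenchyme, held 88.1, 68.0 and 70.8 CPM in VDRgem 1, 2 and 3 against 43.0 ± 3.93 CPM in controls (SD, n = 5). Thbd, the thrombin receptor of vessel walls and epithelia, held 97.5, 84.5 and 94.7 CPM against 51.4 ± 3.44 CPM. Itgbl1, a secreted integrin-like protein, held 36.5, 28.8 and 29.1 CPM against 13.3 ± 1.29 CPM, and the glutamate transporter Slc1a3 was highest in VDRgem 3 (54.5 CPM against 23.1 ± 3.11 CPM). These 4 rises were above every control in each VDRgem library. Among falls, Rnd3, a small GTPase that relaxes the actin skeleton, held 86.6, 84.8 and 89.4 CPM against 136 ± 10.7 CPM, and Psrc1, a spindle-associated protein, held 8.32, 7.62 and 7.43 CPM against 19.4 ± 2.51 CPM. Vwa2, a basement membrane protein of dental and other epithelia, held 30.8, 20.2 and 14.8 CPM against 85.4 ± 4.51 CPM, a log2 fold change of -1.96 (edgeR adjusted p = 0.013).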
